A study of Mus musculus with 14 samples.

Results

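The genes of the cytosolic ribosomal proteins and their paralogs were taken by symbol from the table of the differentiation experiment: names beginning with Rpl or Rps and a digit, the P-stalk genes Rplp0, Rplp1 and Rplp2, and Rpsa, without the Rps6k kinases and without names marked as pseudogenes (-ps). The rule gave 90 of 39179 genes, and the same 90 gene identifiers were found among the 35886 genes of the cell sort. By annotated name they are 45 proteins of the large (60S) subunit, 31 proteins of the small (40S) subunit, 8 paralogs (Rpl3l, Rpl7l1, Rpl10l, Rpl22l1, Rpl36al, Rpl39l, Rps27l and Rps4y2, which is annotated as Rps4l) and 6 others. The 76 genes of the large and small subunits are called core genes here. The 6 others were Rps19bp1, which encodes a binding partner of Rps19, 4 genes annotated as pseudogenes without the mark in their names (Rps12l1, Rps12l2, Rps3a2 and Rps3a3), and the entry Rpl24, whose identifier ENSMUSG00000022601 is annotated as Zbtb11, a zinc finger gene. The ribosomal gene Rpl24 itself (ENSMUSG00000098274) is written RPL24 in the table and lies outside the rule. It was listed at group means of 0.397 to 0.582 CPM (read counts scaled to the library total) in differentiation and at 353 and 566 CPM in the CD61low and CD61high cells. A further 222 genes named as ribosomal protein pseudogenes were left out.

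A ribosome is built from large and small subunits, each an assembly of ribosomal RNA and ribosomal proteins, and most of these proteins are present in a single copy per particle. Their mRNAs are abundant in nearly every cell, and many begin with a C followed by a run of pyrimidines, the 5′ terminal oligopyrimidine (TOP) motif, through which mTOR and Larp1 control their translation together. Their genes have left many intronless processed copies in mammalian genomes, and a few have expressed paralogs whose protein can take the place of the usual one.

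The cells were Ocy454, mouse cells of an osteocyte-like, conditionally immortalized line, grown at 33°C until confluent and then moved to 37°C, where they differentiate. Poly(A) RNA was sequenced at days 1, 7, 10 and 14 at 37°C, with 2 biologic replicates per day (8 libraries). In a separate experiment, cells kept for 17 days at 37°C were stained for surface CD61 (integrin β3, encoded by Itgb3), and RNA was sequenced from the live cells in the 10% with the strongest signal (CD61high, 3 libraries) and the 10% with the weakest (CD61low, 3 libraries). All groups are the same unmodified line, with no other treatment. Itgb3 itself stood at 5.31 to 6.10 CPM in the CD61low libraries and at 100.1 to 130.1 CPM in the CD61high libraries. Depth was 27518605 to 34311238 counted reads per library in differentiation and 18815602 to 19220064 estimated counts in the sort. Of 10 osteoblast and osteocyte markers, 7 to 9 were above 1 CPM in each group, as were 2 to 4 of 5 chondrocyte markers, 1 of 7 macrophage, 1 of 5 adipocyte and 1 of 5 skeletal muscle markers, and none of 5 endothelial markers. Over differentiation the sum of the adipocyte markers went from 10.5 to 11.1 CPM on day 1 to 28.7 to 30.6 CPM on day 10 and 17.5 to 19.3 CPM on day 14, and that of the skeletal muscle markers from 2.10 to 2.29 CPM on day 1 to 23.0 to 25.1 CPM on day 14. The macrophage markers summed to 2.35 to 2.72 CPM on day 1, 4.92 to 5.19 on day 10 and 3.993 to 3.997 on day 14, and the chondrocyte markers to 87.1 to 89.9, 67.5 to 68.5 and 103 to 122 CPM. Their part in the results of the members was not tested. The sum of the 10 osteoblast and osteocyte markers ran from 35421 to 35469 CPM on day 1, from 23483 to 25265 CPM on day 10, from 25445 to 30667 CPM on day 14, from 16865 to 20559 CPM in CD61low and from 48129 to 50642 CPM in CD61high cells. Single markers went the other way over differentiation, with the osteocyte genes Sost from 0 to 18.0 and 17.3 CPM, Dmp1 from 0.915 and 1.00 to 52.1 and 57.6 CPM and Phex from 0.767 and 1.16 to 96.5 and 91.4 CPM between day 1 and day 14. In bulk RNA of this kind, fewer cells with a transcript and less transcript per cell cannot be told apart.

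The sequences bear on how these genes can be counted at all. In the coding sequence of the most abundant protein-coding transcript of each gene (GENCODE M39 on GRCm39), every 50-base window was searched for in the rest of the genome. Among the 76 core genes, a median of 90.3% of the windows was found elsewhere, at a median of 10 loci per gene and at most 129 (Rpl7a). In all, 1177 loci were found, and 92.4% of them overlapped an annotated pseudogene. In 26 core genes every window was found elsewhere. The first 90 coding bases of 3 genes follow, with capitals for the bases that lie in a window found elsewhere. Rps6 (chr4:86775013-86775563, minus strand) and Rpl19 (chr11:97918650-97918739, plus strand) are shown because all their windows have copies, and Rps3 (chr7:99131848-99132828, minus strand) because few of its windows have. The stretches of Rps6 and Rps3 cross an intron.
Rps6: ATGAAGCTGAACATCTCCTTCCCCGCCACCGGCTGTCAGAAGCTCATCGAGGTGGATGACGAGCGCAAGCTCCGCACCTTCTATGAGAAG
Rpl19: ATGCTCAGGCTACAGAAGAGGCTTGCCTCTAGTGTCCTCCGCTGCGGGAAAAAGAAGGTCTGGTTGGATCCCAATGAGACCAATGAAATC
Rps3: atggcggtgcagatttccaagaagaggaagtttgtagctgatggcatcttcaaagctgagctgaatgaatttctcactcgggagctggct

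The levels of the core genes in the differentiation table followed this property. Rps6, a component of the 40S subunit and the classic substrate of S6 kinase, was listed at 1.78 to 5.28 CPM in the 8 differentiation libraries and at 202 to 490 CPM (scaled between libraries by the trimmed mean of M-values, TMM) in the 6 sorted ones. Rpl19, a 60S protein often used as a reference gene, stood at 0.908 to 1.69 CPM in differentiation and at 563 to 817 CPM in the sort. Rpsa, the laminin receptor-like 40S protein, stood at 5.35 to 7.59 CPM against 1716 to 3623 CPM. For Rps3, with 8.05% of its windows elsewhere, the order was the opposite, with 578 to 1039 CPM in differentiation and 278 to 511 CPM in the sort. Across the 76 core genes, Spearman's rho between the share of windows elsewhere and the mean CPM was -0.85 in differentiation and -0.38 in the sort. These are descriptions over genes that share libraries and an annotation. The 2 experiments differed in cells, extraction kit and counting, with HTSeq on STAR alignments in the first and Salmon on transcripts in the second, and these cannot be told apart. What follows therefore compares libraries within an experiment, and gives the results of the core genes by their level in the differentiation table.

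**Figure D1:**
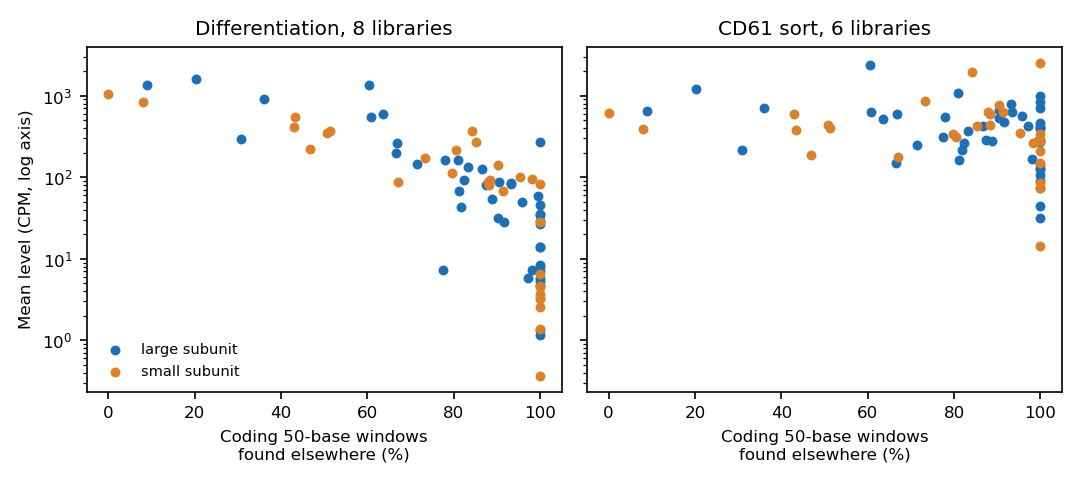
Mean level of the 76 core genes (CPM, log axis) against the share of their coding 50-base windows found elsewhere in the genome (%), in the 8 differentiation libraries (left) and the 6 sorted libraries (right), with large subunit genes in blue and small subunit genes in orange. On the left, levels fall with the share, and the 26 genes whose windows all lie elsewhere have a median of 6.41 CPM, while on the right the same genes have a median of 242 CPM.

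Over differentiation, ribosomal protein mRNA rose, then eased. Summed over all members, it made up 1.23% and 1.22% of the library on day 1, 1.60% and 1.67% on day 7, 1.83% and 1.72% on day 10, and 1.48% and 1.56% on day 14. The ranges of days 1, 7, 10 and 14 did not overlap, and day 14 lay between days 1 and 7. Small subunit genes gained more than large subunit genes up to day 10. The sum over small subunit genes divided by that over large subunit genes was 0.611 and 0.598 on day 1, 0.634 and 0.630 on day 7, 0.671 and 0.677 on day 10, and 0.629 and 0.627 on day 14.

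**Figure D2:**
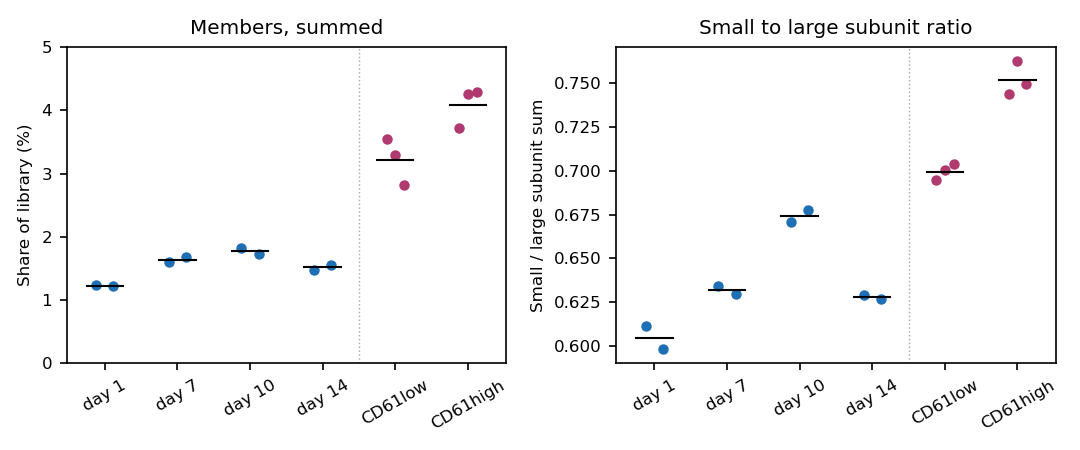
Share of each library in the summed members (%, left) and the sum over small subunit genes divided by that over large subunit genes (right, axis not starting at 0). Points are libraries, lines are group means, blue marks differentiation and purple the CD61 sort. Both measures were highest on day 10 among the days and higher in each CD61high than in each CD61low library.

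Between day 1 and day 14, 55 of the 82 members tested were higher and 15 lower at an adjusted p below 0.05 (limma with Benjamini-Hochberg adjustment over all genes), against 36.2% higher and 39.8% lower among the 12725 genes tested. The 8 members not tested never passed 1 CPM. The median Log2FC was 0.27 for the members and -0.03 for all genes. Of the 45 large subunit genes 31 were higher and 7 lower, with a median of 0.28, and of 30 small subunit genes 22 were higher and 5 lower, with a median of 0.32. By the stricter rule of the study's volcano plot (adjusted p below 0.01 and Log2FC above 1 or below -1), no member was higher and 2 were lower, against 7.51% and 5.9% of all genes.

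The largest increases were those of Rpl35a, Rpl32 and Rps24, all of them abundant in this table. Rpl35a, whose human counterpart is mutated in Diamond-Blackfan anemia, measured 58.8 and 57.5 CPM on day 1, 94.9 and 98.7 on day 7, 119 and 110.2 on day 10 and 93.1 and 109.7 on day 14. Its day 14 libraries lay above both day 1 libraries, with a Log2FC of 0.79 ± 0.06 (SE, n = 2 per day, limma adjusted p = 1.5e-12). Rpl32, a 60S protein, rose from 376 and 382 CPM to 627 and 641 CPM, a Log2FC of 0.74 ± 0.04 (adjusted p = 5.2e-14), and of these 3 only it had a higher mean on day 14 (634 CPM) than on day 10 (600.8 CPM). Rps24, another Diamond-Blackfan anemia gene, went from 70.2 and 69.6 CPM to 115 and 119 CPM, with a Log2FC of 0.74 ± 0.04 (adjusted p = 7.2e-15). Rpl37a (0.69) and Rps14 (0.67) completed the 5 largest increases.

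The largest decreases were found among genes with few counts in this table. Rpl27, a 60S protein, fell from 19.1 and 19.8 CPM on day 1 through 15.03 and 16.1 on day 7 and 14.4 and 12.3 on day 10 to 8.36 and 7.92 on day 14. The 4 days did not overlap, and the Log2FC was -1.16 ± 0.09 (limma adjusted p = 6.4e-12). Rps6 fell from 5.28 and 4.89 CPM to 2.24 and 1.78 CPM, a Log2FC of -1.02 ± 0.13 (adjusted p = 6.0e-08). Rps27a, which is made as a fusion with ubiquitin (-0.68), Rpl28 (-0.62) and Rpl5, a carrier of 5S RNA that also binds Mdm2 (-0.52), made up the rest of the 5 largest decreases. All 5, like 66 of the 76 core genes, were listed lower in differentiation than in the sort, with log2 ratios of mean CPM from -2.69 (Rpl5) to -6.38 (Rps6), and every coding window of Rps6, Rpl27, Rps27a and Rpl5 lies elsewhere in the genome.

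The counts of calls among core genes differed between levels. Of 20 core genes with a mean under 10 CPM, 19 were tested, of which 3 were higher and 8 lower on day 14, with a median Log2FC of -0.24. Their share called lower was near that of all genes (39.8%), and their share called higher was below it (36.2%). Of 27 genes between 10 and 100 CPM, 23 were higher and 3 lower (median 0.34), and of 29 genes at 100 CPM or more, 27 were higher and 1, Rps2, was lower (median 0.35). Rps2, a 40S protein close to the mRNA entry site, measured 424 and 400 CPM on day 1 and 372 and 368 CPM on day 14 (Log2FC -0.15 ± 0.04, adjusted p = 0.00051). Split by sequence instead, the 50 core genes with at least 1 window of their own gave 43 higher and 4 lower, and the 25 tested genes without one gave 10 higher and 8 lower. The part of counting in this split was not tested.

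**Figure D3:**
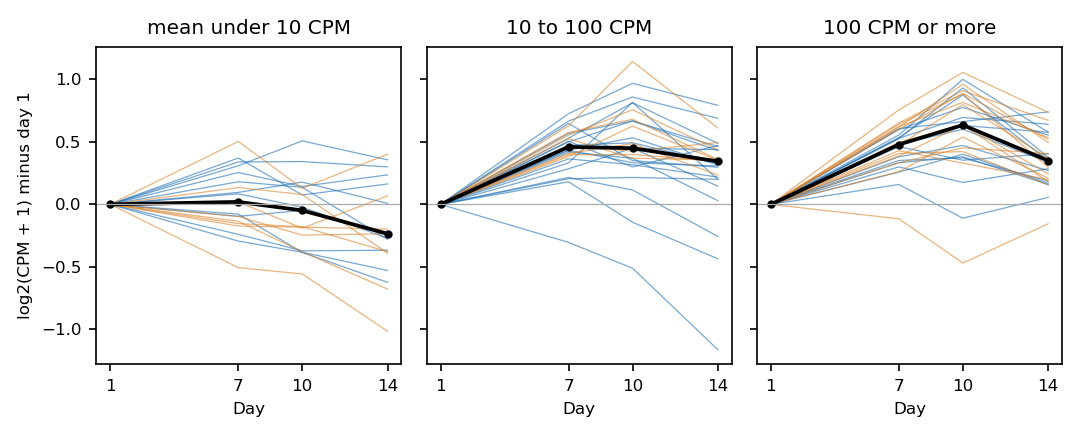
Change of the core genes in log2(CPM + 1) from day 1 over days 1, 7, 10 and 14, for genes with a mean under 10 CPM (left), of 10 to 100 CPM (middle) and of 100 CPM or more (right). Thin lines are genes (blue large subunit, orange small subunit) and the black line is their median, which on day 14 lies at -0.24, 0.34 and 0.35.

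The time course of the core genes had its steps early and late. From day 1 to day 7, 61 of 82 members were higher and 5 lower (limma adjusted p below 0.05), against 28.8% and 37.2% of all genes, with a median Log2FC of 0.38. From day 7 to day 10, 30 were higher and 13 lower, against 36.5% and 23.3%, so the share of members called higher was close to that of all genes. The level classes differed in this step. Of 29 core genes at 100 CPM or more 19 were higher and 4 lower, and of 27 between 10 and 100 CPM 9 and 5. Under 10 CPM, 0 of 19 tested were higher and 3 lower. From day 10 to day 14, 4 were higher and 48 lower, against 27.5% and 35.5%, with a median of -0.20. Of the 75 core genes tested, 57 had their lowest mean on day 1 and 42 their highest on day 10. These comparisons share libraries and are given side by side only.

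Rps3 and Rpl4, both with many reads in this table, show this course. Rps3, a 40S protein that also acts in DNA repair, measured 578 and 580 CPM on day 1, 861 and 921 on day 7, 1039 and 1000 on day 10, and 816 and 861 on day 14. Its day 1 libraries lay below all later ones, and the Log2FC of day 14 against day 1 was 0.53 ± 0.04 (limma adjusted p = 4.1e-12). Rpl4, the member with the highest mean in this table, went through 1303 and 1339, 1687 and 1753, 1894 and 1769, and 1559 and 1629 CPM (0.27 ± 0.04, adjusted p = 2.6e-06). Rack1, a scaffold on the head of the 40S subunit that the rule does not include, measured 1321 and 1302 CPM on day 1, 2180 and 2149 on day 10 and 1534 and 1662 on day 14 (0.28 ± 0.04, adjusted p = 1.2e-06). Fau, which is made as a ubiquitin-like fusion with Rps30, gave 0.32 ± 0.08 (adjusted p = 0.00094).

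Between the sorted populations the core genes were higher in CD61high cells. Of 83 members tested, 69 were higher and 2 lower (edgeR quasi-likelihood test, adjusted p below 0.05), against 26.3% higher and 23.8% lower among 12077 genes. The median Log2FC was 0.61 for the members and 0.00 for all genes. All 71 calls but 3 were core genes, of which 68 of 76 were higher and none was lower. The 2 lower members were Rps19bp1 and the entry annotated as Zbtb11, neither of them a ribosomal protein, with Log2FC of -0.65 each. Large subunit genes had a median of 0.59 (39 of 45 higher) and small subunit genes of 0.66 (29 of 31 higher). The 3 libraries of each group did not overlap in 66 of the 76 core genes, against 58.0% of all genes tested.

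**Figure D4:**
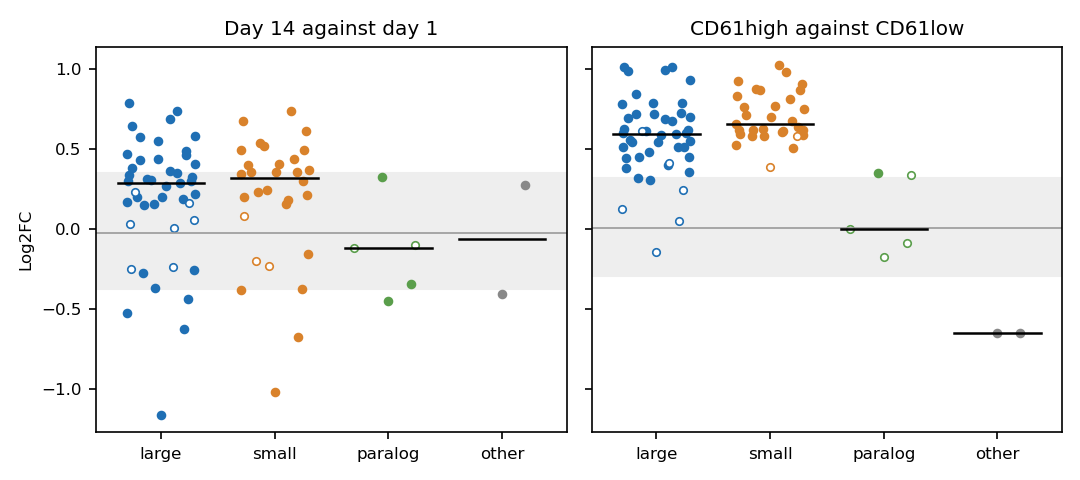
Log2FC of the members tested, by role, for day 14 against day 1 (left, limma) and CD61high against CD61low (right, edgeR). Filled points have an adjusted p below 0.05, open points do not, black lines are medians, and the grey line and band are the median and quartiles of all genes tested. Core genes lie mostly above the band on the right (medians 0.59 and 0.66) and around its upper edge on the left (0.28 and 0.32), while the 5 paralogs tested have medians of -0.12 and -0.00.

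Summed over all members, ribosomal protein mRNA made up 3.54%, 3.29% and 2.82% of the CD61low libraries and 3.72%, 4.26% and 4.29% of the CD61high libraries, with no scaling between libraries involved. The groups did not overlap, although CD61low replicate 1 and CD61high replicate 1 were close. The ratio of small to large subunit sums was 0.695, 0.701 and 0.704 in CD61low and 0.744, 0.763 and 0.749 in CD61high cells. The size of the difference depended on the scaling. TMM factors were 1.10 to 1.13 in CD61low and 0.895 to 0.909 in CD61high libraries, and with library size alone the median of all genes moved to -0.29 and that of the members to 0.31, with 50 members higher and 5 lower, while the calls over all genes went from 3175 higher and 2879 lower to 1494 higher and 6081 lower. Besides the osteoblast and osteocyte markers, the sums of 5 chondrocyte markers (38.2 to 47.4 against 97.4 to 113.8 CPM) and of 5 skeletal muscle markers (17.1 to 18.4 against 29.6 to 42.1 CPM) were higher in CD61high cells, and those of 7 macrophage markers (12.8 to 15.8 against 8.18 to 8.86 CPM) and 5 adipocyte markers (17.5 to 20.6 against 13.8 to 14.6 CPM) were lower, with Myod1 and Myog at 0 in all 6 libraries. The part of the scaling and of these markers in the members' values was not tested.

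Rpl32 was among the largest increases in both experiments. In CD61low cells it measured 479, 427 and 401 CPM after TMM scaling and in CD61high cells 817, 916 and 906 CPM, and the groups were far apart. Its Log2FC was 1.01 ± 0.08 (SE, n = 3 per group, edgeR adjusted p = 6.4e-06). Rps29, a small zinc-binding 40S protein, measured 142, 83.0 and 82.5 CPM against 170, 194 and 263 CPM (1.03 ± 0.22, adjusted p = 0.0027), and Rpl13, a 60S protein, 866, 600.1 and 550.5 CPM against 1079, 1039 and 1948 CPM (1.01 ± 0.24, adjusted p = 0.0053). These 3 were the members higher by the stricter rule, which 4.84% of all genes passed upward, and none passed it downward, against 4.37%. Rpl14 lay just under it, with 385, 396 and 349 CPM against 724, 767 and 763 CPM (1.00 ± 0.07, adjusted p = 2.5e-06), and Rpl39, at the wall of the exit tunnel, rose by 0.98 ± 0.14 (adjusted p = 0.00024).

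CD61high replicate 3 stood apart for a group of genes. In 15 of the 76 core genes its level was more than 1.3 times the mean of the other CD61high libraries, with a range of 0.721 to 1.92 over the core genes and a median of 1.08. Rpl13, Rps29, Rps6, Rpl27, Rps27 and Rps27a were among the 15. Every coding window of these genes lies elsewhere in the genome, as in 26 of the 76 core genes. Rpl10a (99.5% elsewhere) and Rpl37 (81.2%), also among the 15, have windows of their own. Named pseudogenes made up 0.309% of CD61high replicate 3, against 0.339% and 0.430% of replicates 1 and 2. How reads were shared between copies was not tested. Without CD61high replicate 3 no member passed the stricter rule, and Rpl13 (0.65), Rps27 (0.53) and Rps6 (0.32, adjusted p = 0.049) were still called, at smaller values. Rps27a was then not called (0.31, edgeR adjusted p = 0.13). Nor was Rps27a called without CD61low replicate 2 (adjusted p = 0.064) or 3 (0.075), with the replicate block (0.058), an offset for effective length (0.052) or library size alone (0.30). Whichever library was left out, 62 to 73 members were higher at an adjusted p below 0.05 and the median Log2FC lay between 0.50 and 0.69. Leaving out CD61low replicate 1 instead gave 8 members past the stricter rule, leaving out CD61high replicate 1 gave 7, CD61low replicate 2 gave 1 and CD61low replicate 3 gave 0.

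The core genes that were low in the differentiation table were listed higher in the sort, with a median of 289 CPM for those under 10 CPM. A median of 100% of their coding windows lies elsewhere in the genome, and the part of these copies in the sort was not tested. Of the 20 core genes with a mean under 10 CPM in differentiation, 17 were higher in CD61high cells and none was lower, with a median Log2FC of 0.62. In the other level classes 23 of 27 and 28 of 29 were higher, with medians of 0.61 and 0.61. Among all genes 26.3% were higher and 23.8% lower. Rpl27 measured 140, 101 and 105 CPM in CD61low and 143, 153 and 226 CPM in CD61high cells (0.59 ± 0.17, adjusted p = 0.016), and Rps6 262, 235 and 202 CPM against 297, 285 and 490 CPM (0.62 ± 0.19, adjusted p = 0.018). The call of Rpl27 was lost without CD61high replicate 3 (0.35, adjusted p = 0.067) or CD61low replicate 2 (0.50, 0.075), and that of Rps6 without CD61low replicate 2 (0.61, 0.055). Both calls were also lost with DESeq2 (adjusted p = 0.055 for Rpl27 and 0.064 for Rps6) and with library size alone (0.29 and 0.31, adjusted p = 0.15 for each). Rpsa, with 1988, 1833 and 1716 CPM against 3127, 3623 and 3359 CPM, gave 0.87 ± 0.08 (adjusted p = 1.7e-05). The smallest values among core genes were those of Rpl10, a late-joining 60S protein (-0.14 ± 0.12, adjusted p = 0.35), Rpl12 (0.05) and Rpl5 (0.12), which did not pass the test. Rpl10 was called lower with library size alone (-0.45, adjusted p = 0.0089) and with the length trend removed and the replicate block (-0.28, adjusted p = 0.032).

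Per length, in TPM (transcript abundance scaled for length and for the library), members with high means over the sorted libraries included Rps2 (5248) and Rpsa (3302), and the core genes with the lowest were Rpl5 (42.3), Rpl12 (92.3) and Rps27 (93.5). For Rps27, at 10.4 ± 1.05 CPM in CD61low and 19.0 ± 7.29 CPM in CD61high cells (SD, n = 3), every coding window has a copy elsewhere (11 loci), and how reads were shared between copies was not tested.

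7 members are targets in the study's list of the CRISPR interference screen for CD61, among them Rpl18, Rps7, Rps16, Rps20 and Rps26. All 7 were higher in CD61high cells (median Log2FC 0.70), as were 68 of the 76 core genes (median 0.62) and 26.3% of all genes, from Rpl18 (0.48 ± 0.13, edgeR adjusted p = 0.01) to Rps20 (0.87 ± 0.10, adjusted p = 7.9e-05). With library size alone Rpl18 was not called (0.18, adjusted p = 0.24). Between day 1 and day 14, 6 were higher, among them Rps20 (0.18) and Rps7 (0.30), and Rpl18 was not called (0.03, limma adjusted p = 0.58). In that comparison 53 of 75 core genes and 36.2% of all genes were higher. Rps16 was not called without day 14 replicate 2 (0.16, limma adjusted p = 0.063), without the filter (adjusted p = 0.075) or with the length trend removed (0.10, adjusted p = 0.12), nor was Rps26 in that last setting (0.01, adjusted p = 0.75). Rps7, a 40S protein that also binds Mdm2, measured 293, 273 and 243 CPM in CD61low and 444, 492 and 423 CPM in CD61high cells. Rps20, at the head of the 40S subunit, measured 354, 306 and 278 CPM against 509, 575 and 628 CPM. For both genes all CD61high libraries lay above all CD61low libraries.

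In each of the comparisons of day 14 with day 1 and of CD61high with CD61low cells, 1 of the 5 paralogs tested was called higher, against 36.2% and 26.3% of all genes, and with 5 genes this is near those shares. Of the 5 that could be tested, Rpl22l1 was higher on day 14 than on day 1 (not without day 1 replicate 1, adjusted p = 0.12), Rps27l and Rpl7l1 were lower, and Rpl36al and Rpl39l did not pass the test (-0.12 and -0.10). These calls depended on settings. With the trend over transcript length removed, Rpl36al (-0.20, limma adjusted p = 0.0023) and Rpl39l (-0.23, adjusted p = 3.1e-05) were called lower and Rpl22l1 was not called (0.14, adjusted p = 0.19). Rpl36al was also called lower without day 14 replicate 2 (-0.22, adjusted p = 0.0040), and Rpl39l without day 1 replicate 1 (-0.14, adjusted p = 0.038) and with the replicate block (-0.10, adjusted p = 0.049). In the sort, Rpl39l was called higher (0.35 ± 0.10, edgeR adjusted p = 0.019, but 0.061, 0.078 and 0.070 without CD61high replicate 2, CD61high replicate 3 or CD61low replicate 3 and 0.057 with an offset for effective length) and the other 4 were not called. Rps27l was called lower there with the length trend removed (-0.41, adjusted p = 0.00089) and with library size alone (-0.48, adjusted p = 0.0021), where Rpl7l1 was lower too (-0.39, adjusted p = 0.0019) and Rpl39l was not called (0.04, adjusted p = 0.73). Of the remaining 3, Rpl3l, the heart and skeletal muscle form of Rpl3, had 1 to 5 reads in each differentiation library. Rpl10l, a testis form of Rpl10, and Rps4y2 had 0 reads in all 8, which allows up to 0.0874 to 0.109 CPM per library, for counting error only.

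Paralog and partner were compared as a ratio within each library, which is free of scaling between libraries. Ratios are in CPM with 0.1 added, and so they are not ratios of molecules. The coding sequences of the pairs were 74.6% (Rps27l and Rps27), 85.3% (Rpl39l and Rpl39), 87.9% (Rpl36al and Rpl36a) and 69.2% (Rpl22l1 and Rpl22) identical in a global alignment. Rpl39 (chrX:36346354-36348780, minus strand, spliced) and Rpl39l (chr16:9992174-9992329, plus strand) are shown in full since they have the same length and differ by 23 of 156 bases. Capitals mark the bases that differ.
Rpl39: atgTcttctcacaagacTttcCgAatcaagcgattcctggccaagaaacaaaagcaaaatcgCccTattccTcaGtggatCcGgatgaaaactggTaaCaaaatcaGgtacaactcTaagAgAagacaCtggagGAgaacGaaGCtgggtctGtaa
Rpl39l: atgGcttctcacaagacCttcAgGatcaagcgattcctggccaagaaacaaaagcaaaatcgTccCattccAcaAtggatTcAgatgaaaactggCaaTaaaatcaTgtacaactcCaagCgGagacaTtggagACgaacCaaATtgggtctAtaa

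Relative to Rpl39, Rpl39l declined. The log2 ratio was 1.01 and 1.07 on day 1, 0.70 and 0.66 on day 7, 0.65 and 0.56 on day 10, and 0.54 and 0.44 on day 14. The day 1 libraries stood above all later ones, and the days differed in an exact permutation test of the F statistic over the 2520 arrangements (p = 0.0095, the smallest the design allows, adjusted p = 0.019 over 6 pairs). Rpl39l itself stayed between 81.6 and 97.4 CPM while Rpl39 went from 42.4 and 42.9 CPM on day 1 to 56.1 and 60.2 CPM on day 14. Of the coding windows of Rpl39, 88.8% lie elsewhere in the genome, but none of Rpl39l. Rpl39 was listed at a mean of 54.6 CPM in differentiation against 275 CPM in the sort. The part of these copies in the level of the ratio was not tested. In the sort the ratio was -2.81, -2.42 and -2.51 in CD61low and -3.22, -3.11 and -3.36 in CD61high cells. Here the groups did not overlap either, with an exact permutation p of 0.10, the smallest that 3 against 3 libraries allow.

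Rpl7l1, a relative of Rpl7 that acts in pre-60S assembly, fell further against its partner. The log2 ratio was -0.28 and -0.37 on day 1, -1.03 and -1.19 on day 7, -1.35 and -1.25 on day 10, and -1.20 and -1.24 on day 14 (exact permutation p = 0.0095, adjusted p = 0.019). Its own level went from 148 and 146 CPM on day 1 to 112 and 120 CPM on day 14 (Log2FC -0.34 ± 0.04, limma adjusted p = 5.0e-08), and that of Rpl7 from 180 and 189 CPM to 258 and 284 CPM. Of the coding windows, 66.8% of Rpl7 and 22.3% of Rpl7l1 lie elsewhere in the genome. Rpl7 was listed at a mean of 263 CPM in differentiation against 602 CPM in the sort. In the sort the ratio was -2.80, -2.67 and -2.69 in CD61low and -3.39, -3.41 and -3.31 in CD61high cells, again without overlap (exact permutation p = 0.10). The log2 ratio of Rpl36al to Rpl36a did not fall steadily. It was 2.68 and 2.77 on day 1, 2.46 and 2.67 on day 7, 2.87 and 2.80 on day 10, and 2.38 and 2.31 on day 14 (exact permutation p = 0.0095, adjusted p = 0.019 over the 4 days), so it was highest on day 10 and lowest on day 14. Every coding window of Rpl36a lies elsewhere in the genome, and it was listed at a mean of 7.02 CPM in differentiation against 106 CPM in the sort. The ratio fell by 0.66 from CD61low to CD61high cells (exact permutation p = 0.10).

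Rpl22l1, which is kept low by Rpl22 in many cells, was measured at 8.77 to 13.1 CPM in differentiation and at 4.44 to 10.5 CPM in the sort. Against Rpl22 its log2 ratio was -4.62 and -4.34 on day 1, -4.65 and -4.55 on day 7, -4.90 and -4.86 on day 10, and -4.65 and -4.77 on day 14 (exact permutation p = 0.038, adjusted p = 0.046). In the sort the ratios overlapped, from -5.14 to -4.60 in CD61low and from -5.50 to -4.68 in CD61high cells (exact permutation p = 0.40). Rps27l, a p53-inducible relative of Rps27, fell from 61.8 and 62.5 CPM on day 1 to 44.9 and 45.4 CPM on day 14 (Log2FC -0.45 ± 0.05, limma adjusted p = 9.4e-09), with the lowest level, 42.6 CPM, on day 10. In the sort it measured 25.6, 24.0 and 22.0 CPM against 19.6, 21.3 and 22.5 CPM (-0.18 ± 0.10, adjusted p = 0.17, edgeR). Rps27 was listed at 0.109 to 0.548 CPM in differentiation, so the ratio of Rps27l to it is set by the pseudocount: day 14 minus day 1 was 0.79 with 0.1 added and -0.08 with 1 added. In the sort that ratio was 1.18, 1.37 and 1.04 in CD61low and 0.19, 0.73 and -0.27 in CD61high cells (exact permutation p = 0.10).

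**Figure D5:**
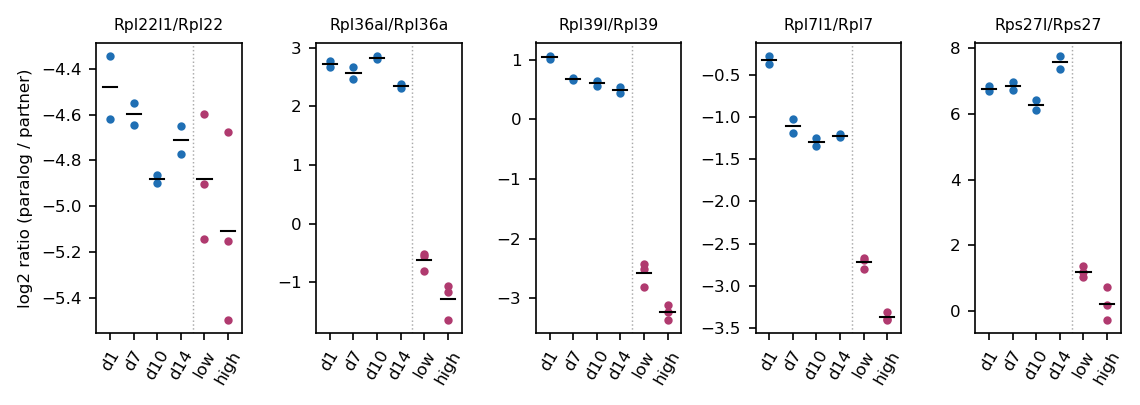
Log2 ratio of paralog to partner in each library (points) with group means (lines), for 5 pairs, over days 1, 7, 10 and 14 (blue) and in CD61low and CD61high cells (purple). Axes differ between panels. Rpl39l/Rpl39 and Rpl7l1/Rpl7 were highest on day 1, and in 4 of the 5 pairs, all but Rpl22l1/Rpl22, the CD61high libraries lie below the CD61low libraries.

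The start sites of members were read from RefSeq promoters (GRCm38.p6), which were given for 64 of 89 members (the entry annotated as Zbtb11 aside). A C at the first transcribed base followed by 4 bases that are each C or T, read on the gene's strand, was found in 13 of 56 core genes (23.2%), in none of 7 paralogs and in 3.01% of 27025 genes. Allowing the run to begin up to 5 bases before or after the annotated start gave 27 of 56 core genes (48.2%), 2 of 7 paralogs and 21.2% of all genes. A match is a description of these letters and no match says only that they are not in this window. The 20 bases before and the 10 from the start of 4 core genes and 2 paralogs are shown, with the run in capitals where it begins at the start. The core genes are 4 of the 13 with the run at the start, of which 12 were tested over differentiation. Of these, 10 were higher on day 14 than on day 1, Rpl14 and Rps10 (0.36) among them, and 2, Rpl28 and Rps6, were lower. Among all 75 core genes tested 53 were higher and 12 lower, and among all genes 36.2% and 39.8%. A link of the run to these calls was not tested. Rps27l and Rpl22l1 have no run at the start but are the 2 paralogs with one within 5 bases of it. They lie at chr9:120571497-120571526 (Rpl14, plus), chr17:27635235-27635264 (Rps10, minus), chr7:4792945-4792974 (Rpl28, plus), chr4:86857358-86857387 (Rps6, minus), chr9:66946066-66946095 (Rps27l, plus) and chr3:28805488-28805517 (Rpl22l1, plus).
Rpl14: cggcagggcgggccctctctCTTCTcgctg
Rps10: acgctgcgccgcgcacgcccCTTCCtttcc
Rpl28: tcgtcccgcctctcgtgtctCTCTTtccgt
Rps6: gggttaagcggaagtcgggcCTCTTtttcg
Rps27l: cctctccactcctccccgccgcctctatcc
Rpl22l1: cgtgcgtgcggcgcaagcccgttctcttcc

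Genes of ribosome assembly were mostly lower where the core genes were mostly higher. Of 81 genes of ribosome biogenesis (factors for ribosomal RNA synthesis, processing and subunit export), 10 were higher and 59 lower on day 14 than on day 1 (limma adjusted p below 0.05), with a median Log2FC of -0.38. In CD61high cells 4 were higher and 59 lower (edgeR), with a median of -0.40. The medians of all genes were -0.03 and 0.00, and 39.8% and 23.8% of all genes were called lower. From day 1 to day 7, however, 37 were higher and 15 lower, against 28.8% and 37.2% of all genes. Rrp12, a factor for subunit export, went from 43.4 ± 1.37 to 15.6 ± 1.26 CPM between day 1 and day 14 (SD, n = 2, Log2FC -1.42), and Mdn1, an AAA ATPase of 60S maturation, from 120.7 ± 12.8 to 47.9 ± 6.57 CPM (-1.32). Nop53, which recruits the exosome to pre-60S particles, was an exception in both comparisons, with 74.9 ± 1.71 against 122.7 ± 3.77 CPM (0.70) and 85.0 ± 9.08 against 122.7 ± 2.20 CPM (n = 3, 0.53). Nmd3, the export adaptor of the 60S subunit, fell from 65.6 ± 2.46 to 27.8 ± 2.41 CPM in the sort (-1.24, edgeR adjusted p = 1.7e-06).

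Of 18 tested regulators of ribosomal protein mRNA, 5 were higher and 11 lower on day 14, against 36.2% and 39.8% of all genes, and 3 were higher and 3 lower in CD61high cells, which is below the 26.3% and 23.8% of all genes. Myc, a driver of ribosomal protein transcription, measured 81.3 ± 1.08 CPM on day 1 and 118 ± 4.22 CPM on day 14 (Log2FC 0.53, limma adjusted p = 3.0e-11), but 151 ± 6.28 and 148 ± 3.93 CPM in CD61low and CD61high cells (-0.02, edgeR adjusted p = 0.78). Larp4, which binds poly(A) tails, was lower in both comparisons (-0.91 and -0.80). Of the p53 targets, 11 were higher and 9 lower of 21 on day 14, against 36.2% and 39.8% of all genes. In CD61high cells 5 were higher and 8 lower of 19, against 26.3% and 23.8% of all genes. Cdkn1a, the cell cycle inhibitor p21, rose from 30.3 ± 1.39 to 494 ± 18.7 CPM over differentiation (Log2FC 3.99) and was 0.77 higher in CD61high cells, whereas Plk2 was lower by 1.88 and 1.67.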

How the data were processed

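For differentiation, the authors aligned reads with STAR, counted them with HTSeq and deposited CPM for 39179 genes. For the sort they deposited Salmon's estimated counts and TPM per transcript on GRCm39. Whether reads with several genomic matches were counted, and the versions of STAR, HTSeq and Salmon, are not given in the sources used here. Every CPM value (100%) was a whole number of reads to within 0.01, so whole reads were recovered, and edgeR on them called 4878 genes higher and 4775 lower on day 14 against day 1.

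Here, estimated counts were summed per gene with GENCODE M39 (99.3% to 99.4% of counts matched), rounded, scaled by TMM over all genes, and tested with edgeR 4.0.16 (quasi-likelihood) where all 6 libraries held 5 normalized counts or more. CPM was tested as log2(CPM + 1) with limma 3.58.1 (trend, all 8 libraries) for genes above 1 CPM in any library. Folds are on that scale and understate changes of low genes. Adjusted p-values are Benjamini-Hochberg over all genes tested. R 4.3.3, Python 3.11.15 and matplotlib 3.10.9 were used, and the tests recovered known changes in simulated data. Those changes were larger than most changes of the members, with a spread set by hand, so recovery of smaller changes was not tested. P-values measure the spread between these libraries, which may share cultures.

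Genes were named by rule: members past the stricter call, the 5 largest increases and decreases per comparison, paralogs with partners, screen targets, the 3 highest and 3 lowest in TPM, Fau and Rack1, and at most 4 genes per pathway list with Myc. Some of these are not reported here. Rpl19, Rpl4, Rpl7a, Rps3 and Rps10 were added after their values were seen. Members and lists were chosen with earlier results of these data known. Alternatives included DESeq2 1.42.0, other scalings, filters and pseudocounts, removal of the trend over transcript length, a replicate block and leaving out single libraries. The splits by level and by copied windows were chosen after seeing the data.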

Additional observations from a re-analysis of the deposited data

How the results depend on the processing

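On day 14 against day 1, the members' median Log2FC (0.27) was 0.31 with TMM scaling, 0.31 with edgeR on recovered reads, 0.23 without a filter and 0.17 with the trend over transcript length removed, also with the replicate block, and 0.23 to 0.30 with 1 library left out. The members past the stricter rule downward (2) were 1 with TMM scaling, 1 with a filter at a mean of 5 CPM and 1 to 2 with 1 library left out (1 without day 1 replicate 1 or day 14 replicate 2). From day 7 to day 10, the members lower (13) were 20 with TMM scaling, 7 without a filter and 6 to 18 with 1 library left out (6 without day 10 replicate 2, 8 without day 7 replicate 2). From day 10 to day 14, the members higher (4) were 8 with TMM scaling or edgeR, 2 with the length trend removed, with or without the block, and 2 to 9 with 1 library left out (9 without day 10 replicate 1, 2 without day 10 replicate 2). The log2 ratio of Rps27l to Rps27, day 14 minus day 1, was 0.79 and reversed to -0.0849 with a pseudocount of 1.

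In the sort, the members past the stricter rule upward (3) were 1 with TMM after the filter or an offset for effective length, 0 with library size alone or the length trend removed, with or without the replicate block, and 0 to 8 with 1 library left out. The median (0.61) was 0.45 with the length trend removed, 0.44 with the block as well and 0.31 with library size alone. The members lower (2) were 5 with library size alone and 4 with the length trend removed and the block. The cause of these changes was not tested.

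Same-numbered libraries did not deviate together (correlations of -0.24, 0.15 and -0.05 in the sort), so the numbers were not used as pairs. With the replicate block, day 14 had 55 members higher and 16 lower, and the sort 67 higher and 2 lower. Genes under 10 CPM in differentiation rest on few reads, and with 2 libraries per day and 3 per sorted group small differences may be missed.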
